A study of Homo sapiens with 21 samples.

Results

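The MYC, MAX and MXD network is described here in SK-N-BE(2) cells, an established human neuroblastoma line with amplified MYCN. Its members were chosen by name as 10 genes, MYCN, MYC, MYCL, MAX, MXD1, MXD3, MXD4, MXI1, MNT and MLX, and all 10 were found among the 60728 genes of the deposited expression table. The study asked what the silencing of ARID1A and ARID1B, structural subunits of the BAF chromatin remodelling complex, does to the transcriptome. Polyadenylated RNA was sequenced 72 h after lentiviral transduction in 7 conditions of 3 libraries each. The labels name a non-silencing Control, the short hairpin RNAs (shRNAs) shARID1A.2 and shARID1A.4, the shRNAs shARID1B.2 and shARID1B.3, and the combinations shARID1A/B.2.3 and shARID1A/B.4.2. All groups, Control included, carried a lentiviral shRNA vector, and all came from 1 cell line with no further treatment named. Nothing in the labels says whether the 3 libraries of a condition came from separate cultures, so the p-values measure only the spread between these libraries, which may be technical.

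MYC-family proteins bind DNA at E-boxes as pairs with MAX and promote transcription of genes for growth, ribosome biogenesis and metabolism. The MXD proteins (MXD1, MXD3, MXD4 and MXI1, also known as MXD2) and MNT also pair with MAX at the same sites and recruit SIN3 and histone deacetylases, which repress transcription. MLX is a related partner that binds some MXD proteins and MNT, and also the glucose-responsive MLXIP. In neuroblastoma, amplification of MYCN is a hallmark of high-risk disease, and cells with high MYCN usually express little MYC.

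Each deposited value is a read number that the authors scaled by a size factor of the library, called a normalised read count below. Undoing the scaling gave 27954334 to 41077638 reads in a library (median 34973565). The targeted genes go against several labels. Where the label was shARID1A.2 or shARID1A.4 both genes were low, with log2 fold changes of -1.56 and -1.49 for ARID1A and of -1.37 and -0.90 for ARID1B. In those labelled shARID1B.2 and shARID1B.3 it was ARID1A that was low (-1.72 and -1.35), while ARID1B changed by -0.21 and 0.07. In those labelled shARID1A/B.2.3 and shARID1A/B.4.2 it was ARID1B that was low (-1.16 and -1.60), while ARID1A changed by -0.16 and -0.21. Conditions are therefore named below as the libraries labelled so. Among the markers of the adrenergic neuroblastoma identity all 10 genes were detected in every library, with a summed value of 58543 to 97696. Of 9 markers of other cells, SOX10 of Schwann cells was at 0 in every library and PECAM1 of endothelium at 0 to 2.81, whereas COL1A1, COL3A1 and PDGFRB of mesenchymal cells were expressed. PTPRC of leukocytes was at 57.3 to 426, EPCAM and KRT19 of epithelium at 58.4 to 227 and 13.9 to 56.4, and S100B of Schwann cells at 51.2 to 212.

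**Figure D1:**
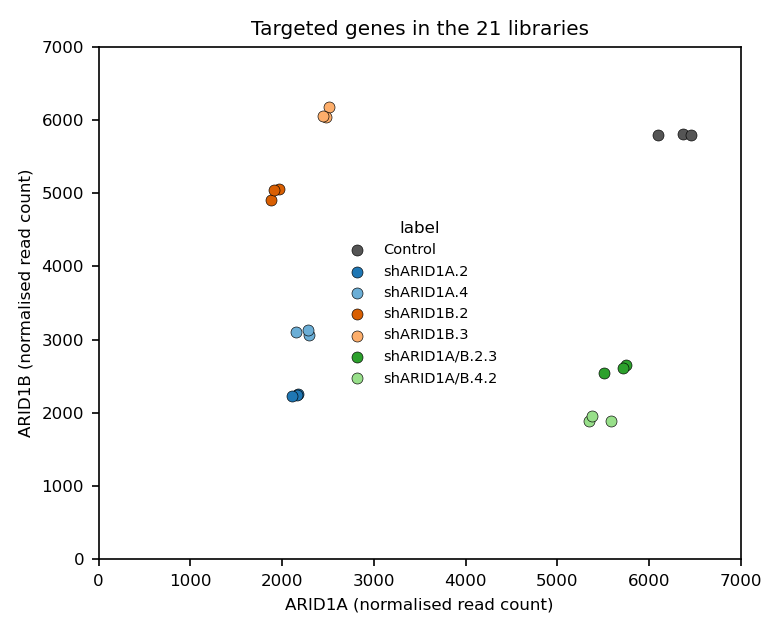
Normalised read counts of ARID1A (x axis) and ARID1B (y axis) in the 21 libraries, 1 point per library, coloured by label. The Control libraries lie at the upper right (ARID1A 6097 to 6463, ARID1B 5791 to 5804), the libraries labelled shARID1A are low in both genes, those labelled shARID1B are low in ARID1A and those labelled shARID1A/B are low in ARID1B.

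Among the 10 members, MYCN, the amplified oncogene of this line, changed in every condition, and the direction differed between the shRNAs of each label. Its gene (ENSG00000134323.12) lies on chromosome 2 (15940564 to 15947007, plus strand, GRCh38, GENCODE release 29). The Control libraries had 120355, 123481 and 124192 normalised reads of MYCN. The libraries labelled shARID1A.2 had 94497, 90242 and 95144, whereas those labelled shARID1A.4 had 416867.5, 426869.8 and 410526. All libraries labelled shARID1A.2 were below the Control libraries, and all those labelled shARID1A.4 were far above them. MYCN had 80175, 77312 and 80529.6 normalised reads in the libraries labelled shARID1B.2 and 165689, 148109 and 158121 in those labelled shARID1B.3. It had 218173, 216229 and 221301 in those labelled shARID1A/B.2.3 and 84499, 86206 and 84726 in those labelled shARID1A/B.4.2. Thus 3 conditions lay wholly below Control and 3 wholly above it, 1 of each kind for every label. Opposite directions were common, in 28.5%, 30.2% and 34.3% of all genes called in both conditions of shARID1A, shARID1B and shARID1A/B. The share of all genes whose libraries lie as fully apart from Control is not given here.

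The log2 fold change of MYCN against Control was -0.40 (standard error 0.03, adjusted p = 6.43e-12) for shARID1A.2, 1.77 (adjusted p = 9.49e-25) for shARID1A.4 and -0.63 (adjusted p = 1.38e-15) for shARID1B.2, from limma with Benjamini-Hochberg adjustment over the 18584 genes tested. It was 0.36 (adjusted p = 8.75e-11) for shARID1B.3, 0.83 (adjusted p = 2.87e-18) for shARID1A/B.2.3 and -0.53 (adjusted p = 2.81e-14) for shARID1A/B.4.2 from the same limma fit. The 6 comparisons share the same 3 Control libraries. The rise in the libraries labelled shARID1A.4 was 3.41-fold, and only 6.5% of the genes tested had a change of larger size there. In the other conditions the change of MYCN ranked lower, with 23.2% (shARID1A/B.2.3) to 59.8% (shARID1A.2) of the genes tested changing more. In these bulk samples fewer cells of a type and less RNA per cell cannot be told apart.

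Neighbouring conditions in the order of MYCN levels did not overlap in any case. The order from low to high was shARID1B.2, shARID1A/B.4.2, shARID1A.2, Control, shARID1B.3, shARID1A/B.2.3 and shARID1A.4. MYCN took 0.343% ± 0.006 (SD, n = 3) of all reads in Control and 1.19% ± 0.02 (SD, n = 3) in the libraries labelled shARID1A.4, where it ranked 7th of 58541 genes per kb of exon, against 15th in Control. It ranked 20th for shARID1B.2, the lowest of its ranks.

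**Figure D2:**
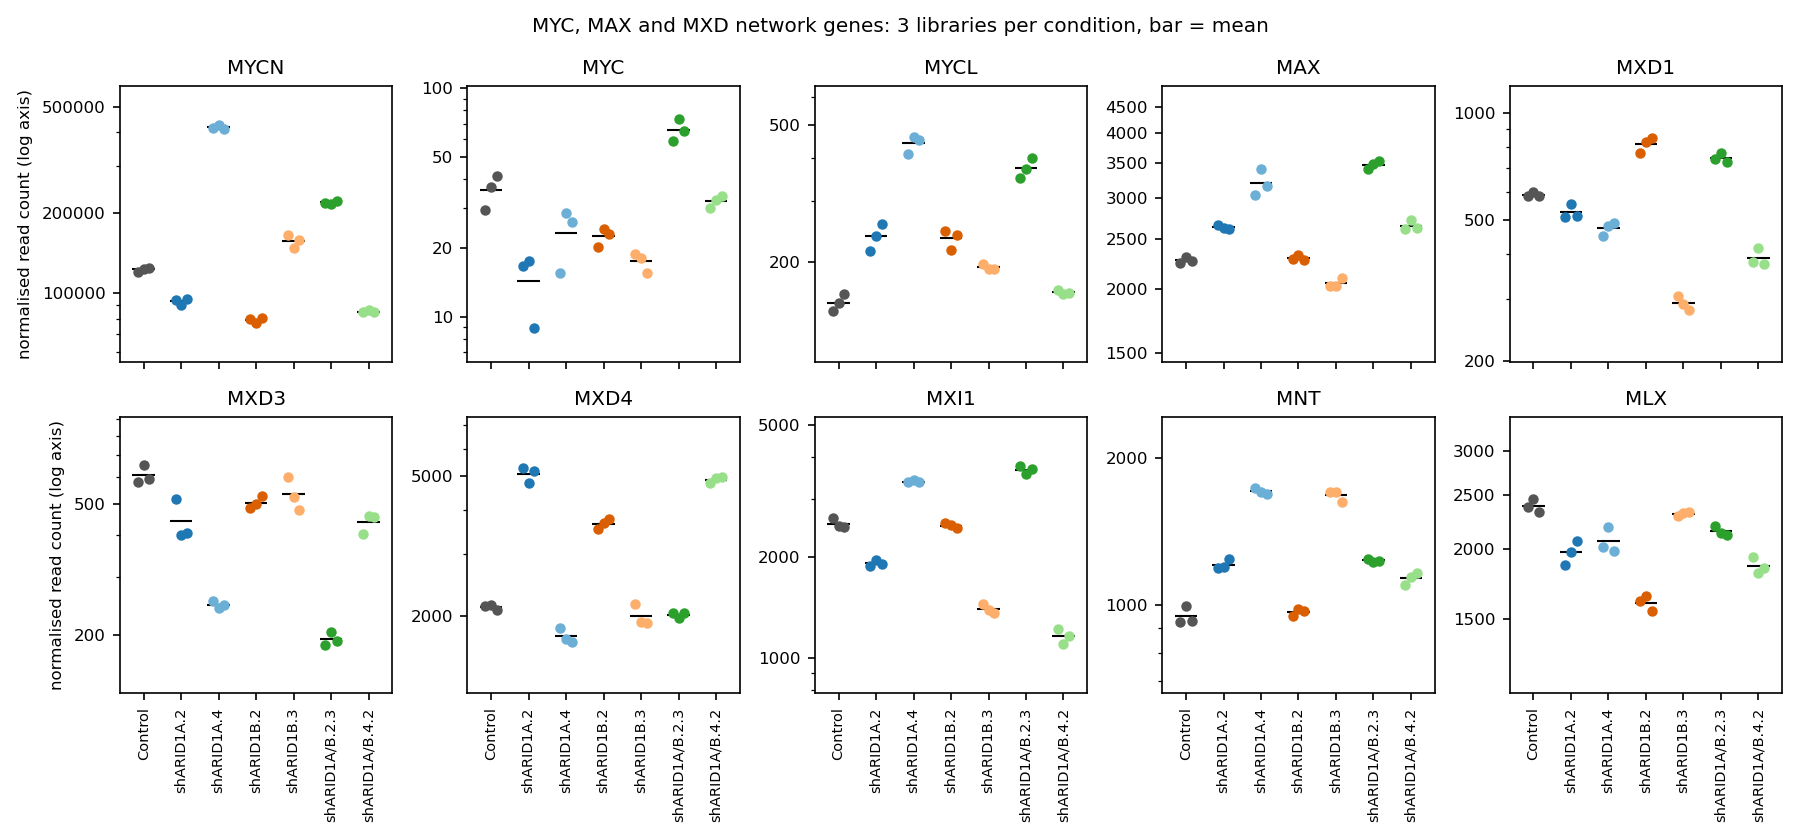
Normalised read counts of the 10 members (log axis, 1 panel per gene) in the 7 conditions, 3 libraries each as points and the condition mean as a bar. MYCN lies between 77312 and 426869.8, with 3 conditions above Control and 3 below, MXD4 is raised in the conditions in which MYCN is low, and MXD3 lies below the Control mean of 610 in every condition.

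The genes around MYCN on chromosome 2 did not all share its direction. MYCNOS, the antisense gene that overlaps the start of MYCN (15921037 to 15942249, minus strand), had a mean of 1272 ± 34 (SD, n = 3) in Control. Its log2 fold changes were -0.82 and 0.55 for shARID1A.2 and shARID1A.4, -0.97 and 0.18 for shARID1B.2 and shARID1B.3, and -0.38 and -0.95 for the combinations shARID1A/B.2.3 and shARID1A/B.4.2, all called by limma. It thus had the sign of MYCN in 5 conditions and the opposite sign in the libraries labelled shARID1A/B.2.3. The libraries were stranded, but the strand setting of the counting is not given in the sources used here, so reads of MYCN and MYCNOS in the shared stretch may not be fully separated. DDX1, an RNA helicase gene 309 kb away that is often co-amplified with MYCN, had log2 fold changes of -0.30, 0.07, -0.39, -0.04, 0.05 and -0.27 in the same order, and its value in the libraries labelled shARID1B.3 did not pass the test. NBAS, which acts in vesicle transport, had log2 fold changes of 0.08, 0.42, -0.22, 0.08, 0.41 and -0.11, all called, and the last was 0.08 with scaling to total reads. GACAT3, a long non-coding RNA gene, fell by 0.28 for shARID1B.3, where MYCN rose, and by 0.19 for shARID1A.2 and 0.42 for shARID1B.2. The fall for shARID1A.2 depended on the scaling, since with total reads the median of the 5 neighbours tested was -0.018 there, in place of -0.19. CYRIA, 602 kb away, had few reads, with condition means of 11.6 to 47.4 normalised reads. Its log2 fold changes were -1.92 for shARID1A.4 and -1.59 for shARID1B.3, where MYCN rose (limma, adjusted p = 2.83e-06 and 4.91e-05). It did not pass the test in the other conditions. Copy number was not measured in these files.

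MYC, the paralog that MYCN-amplified cells keep low, was barely expressed, with 8 to 70 reads in a library. Normalised reads of MYC in Control were 29.4, 36.9 and 41.1. The libraries labelled shARID1A/B.2.3 had 58.7, 72.9 and 65.2, all above Control. In the libraries labelled shARID1A.2 the values were 16.6, 17.5 and 8.91, all below it. The values were 15.5 to 28.5 for shARID1A.4, 20.1 to 24.3 for shARID1B.2 and 15.5 to 18.9 for shARID1B.3, also below every Control library. MYC fell by 1.30 in log2 for shARID1A.2 (standard error 0.24, limma adjusted p = 3.96e-05) and by 0.98 for shARID1B.3 (limma, adjusted p = 0.00116), and it rose by 0.86 for shARID1A/B.2.3 (limma, adjusted p = 0.00313). It was lower by 0.63 for shARID1A.4 (limma, adjusted p = 0.0249) and by 0.64 for shARID1B.2 (limma, adjusted p = 0.0258), but at this depth these calls did not hold in all settings. Without Control replicate 2, Control replicate 3 or shARID1A.4 replicate 1, the adjusted p from limma for shARID1A.4 was 0.0602, 0.0952 and 0.191, and in the last case the log2 fold change was -0.37. Without Control replicate 2, Control replicate 3 or shARID1B.2 replicate 1, that for shARID1B.2 was 0.0630, 0.0985 and 0.0835. The libraries labelled shARID1A/B.4.2 overlapped Control, with 30.1, 32.4 and 33.7 normalised reads of MYC and a log2 fold change of -0.14 (95% confidence interval -0.65 to 0.36, limma adjusted p = 0.619).

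MYCL, the third member of the MYC family (chromosome 1, 39895426 to 39902256, minus strand), was higher than Control in 5 of 6 conditions. Normalised reads of MYCL in Control were 144 to 162. The libraries labelled shARID1A.4 had 412 to 461, the highest of all. MYCL rose by 1.52 in log2 for shARID1A.4 and by 1.28 for shARID1A/B.2.3, the conditions with the highest MYCN. It also rose in 2 conditions in which MYCN fell, by 0.63 for shARID1A.2 and by 0.61 for shARID1B.2, and by 0.34 for shARID1B.3. For shARID1A/B.4.2 the values of 162 to 167 touched the Control range, and the log2 fold change was 0.10 (95% confidence interval -0.06 to 0.26, limma adjusted p = 0.246). With scaling to total reads this last value was 0.29 and passed the test (limma, adjusted p = 0.00152).

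MAX, the partner that every MYC protein needs to bind DNA (chromosome 14, 65006174 to 65102695, minus strand), rose in 4 conditions and fell in 1. Normalised reads of MAX in Control were 2239, 2300.1 and 2264. The libraries labelled shARID1A/B.2.3 had 3415, 3489 and 3533, and those labelled shARID1A.4 had 3037, 3414 and 3168. These were the highest conditions for MAX, as they were for MYCN and MYCL. MAX rose by 0.62 in log2 for shARID1A/B.2.3 (limma, adjusted p = 8.77e-15), by 0.50 for shARID1A.4, by 0.22 for shARID1A/B.4.2 and by 0.21 for shARID1A.2. It fell by 0.15 for shARID1B.3 (limma, adjusted p = 0.00028). For shARID1B.2 the change of MAX was 0.02 (95% confidence interval -0.05 to 0.08, limma adjusted p = 0.691), and 0.15 with a call when values were scaled to total reads (limma, adjusted p = 0.0001).

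MXD4, a repressor partner of MAX (chromosome 4, 2247432 to 2262294, minus strand), was raised in exactly the 3 conditions in which MYCN was lowered. Normalised reads of MXD4 in Control were 2133, 2140.02 and 2071. The libraries labelled shARID1A.2 had 5272, 4780.25 and 5172, those labelled shARID1B.2 had 3538, 3678 and 3764, and those labelled shARID1A/B.4.2 had 4770.5, 4928 and 4960.2. All 9 of these libraries were above every other library, and the share of all genes that split in this way is not given here. MXD4 rose by 1.26 in log2 for shARID1A.2 (standard error 0.04, limma adjusted p = 1.14e-18), by 0.79 for shARID1B.2 (limma, adjusted p = 3.14e-14) and by 1.21 for shARID1A/B.4.2 (limma, adjusted p = 3.92e-18). In the conditions with raised MYCN it had 1684 to 1837 normalised reads for shARID1A.4, a fall of 0.28 in log2 (limma, adjusted p = 2.87e-06). It had 1901 to 2161 for shARID1B.3, which overlapped Control, and 1973 to 2033 for shARID1A/B.2.3, just below Control, with log2 fold changes of -0.09 and -0.07 that did not pass the test (limma, adjusted p = 0.0761 and 0.145). Without shARID1B.3 replicate 1 the value for shARID1B.3 was -0.15 and passed it (limma, adjusted p = 0.00233), and without shARID1B.3 replicate 3 it was -0.06 (limma, adjusted p = 0.315). Over the 21 libraries the Pearson correlation of the log2 values of MYCN and MXD4 was -0.80, which is a description, since the libraries of a condition are not independent of each other.

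The promoters of MYCN, MXD4 and MNT are shown because MYCN is the amplified member and MXD4 moved against it, and because MXD4 and MNT, with MLX, are the members whose promoter window holds the canonical E-box, CACGTG, the site that MYC-MAX and MXD-MAX pairs bind. The sequences are from RefSeq (GRCh38.p14), 300 bases each, from 250 before to 50 after the annotated start, 5′ to 3′ on the gene's strand, and the E-box is in capitals. The windows are chr2:15940300-15940599 (plus strand) for MYCN, chr4:2262060-2262359 (minus strand) for MXD4 and chr17:2401011-2401310 (minus strand) for MNT.
MYCN: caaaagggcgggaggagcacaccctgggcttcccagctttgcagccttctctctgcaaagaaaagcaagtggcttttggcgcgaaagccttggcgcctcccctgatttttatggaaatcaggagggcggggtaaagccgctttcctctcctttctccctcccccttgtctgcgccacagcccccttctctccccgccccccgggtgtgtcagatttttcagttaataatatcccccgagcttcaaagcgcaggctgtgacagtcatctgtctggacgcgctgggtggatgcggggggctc
MXD4: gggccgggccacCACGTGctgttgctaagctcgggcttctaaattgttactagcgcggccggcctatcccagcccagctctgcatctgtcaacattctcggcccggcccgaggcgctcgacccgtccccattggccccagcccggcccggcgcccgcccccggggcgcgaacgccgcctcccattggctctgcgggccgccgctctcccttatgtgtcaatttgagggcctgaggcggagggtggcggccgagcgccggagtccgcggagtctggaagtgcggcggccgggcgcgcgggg
MNT: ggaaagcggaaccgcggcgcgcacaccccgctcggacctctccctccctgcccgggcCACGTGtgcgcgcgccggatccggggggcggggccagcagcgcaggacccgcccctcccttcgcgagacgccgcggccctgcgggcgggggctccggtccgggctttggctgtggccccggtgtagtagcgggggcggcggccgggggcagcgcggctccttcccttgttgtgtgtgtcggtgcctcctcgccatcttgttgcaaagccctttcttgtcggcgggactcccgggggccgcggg
The motif begins 238 bases before the start in MXD4, 193 before it in MNT and 50 before it in MLX, and these letters are not in the MYCN window. It reads the same on both strands, and no other motif was searched. The 9 members with an entry have 12 windows, of which 3 held it, beside 7.26% of all 35116 promoter windows. MYC is not shown. A match is a description of the letters only.

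MXI1 (chromosome 10, 110207605 to 110287365, plus strand) followed MYCN in 4 conditions and not in the others. Normalised reads of MXI1 in Control were 2625, 2484 and 2472. It was highest for shARID1A/B.2.3, with 3772, 3569 and 3682, and next for shARID1A.4, with 3371, 3411 and 3364. It was lowest for shARID1A/B.4.2, with 1223, 1098 and 1163, and next for shARID1B.3, with 1451, 1395 and 1366. None of these 4 conditions overlapped Control. MXI1 rose by 0.54 in log2 for shARID1A/B.2.3 and by 0.42 for shARID1A.4, and it fell by 1.12 for shARID1A/B.4.2 (limma, adjusted p = 3.49e-19), by 0.85 for shARID1B.3 and by 0.39 for shARID1A.2. In the libraries labelled shARID1B.3 it thus fell where MYCN rose. For shARID1B.2 the libraries overlapped Control, with 2532, 2503 and 2445 and a log2 fold change of -0.02 (95% confidence interval -0.09 to 0.05, limma adjusted p = 0.659), which was 0.12 with a call when scaled to total reads (limma, adjusted p = 0.00558).

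MXD1 (chromosome 2, 69897688 to 69942945, plus strand) was raised in 2 conditions and lowered in 4. Normalised reads of MXD1 in Control were 584, 598 and 585. It was highest in the libraries labelled shARID1B.2, with 771, 831 and 851, and lowest in those labelled shARID1B.3, with 306, 289 and 279. The conditions labelled shARID1B thus had the highest and the lowest mean of this gene, with all libraries apart from Control. The libraries labelled shARID1B.2 overlapped those labelled shARID1A/B.2.3, which had 729 to 773. MXD1 rose by 0.47 in log2 for shARID1B.2 (limma, adjusted p = 4.37e-08) and by 0.34 for shARID1A/B.2.3. It fell by 1.01 for shARID1B.3 (limma, adjusted p = 3.34e-14), by 0.59 for shARID1A/B.4.2 and by 0.32 for shARID1A.4. The small fall of 0.16 for shARID1A.2 (limma, adjusted p = 0.00908) became 0.01 with scaling to total reads (limma, adjusted p = 0.91).

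MXD3 (chromosome 5, 177301461 to 177312757, minus strand), an MXD gene known for its expression in dividing cells, was below Control by its mean in every condition. The Control libraries had 583, 654 and 593 normalised reads of MXD3, those labelled shARID1A.4 had 253, 240.2 and 246.5 and those labelled shARID1A/B.2.3 had 186, 204 and 192. The last of these were the lowest of all libraries. MXD3 fell by 1.64 in log2 for shARID1A/B.2.3 (standard error 0.09, limma adjusted p = 1.14e-14) and by 1.30 for shARID1A.4, the conditions with the highest MYCN, MYCL and MAX. It fell by 0.47 for shARID1A.2 and for shARID1A/B.4.2 and by 0.28 for shARID1B.2, where scaling to total reads left -0.14 (limma, adjusted p = 0.178). For shARID1B.3 the libraries overlapped Control (477 to 601), and the log2 fold change was -0.20 (limma, adjusted p = 0.0515), or -0.28 without shARID1B.3 replicate 1 (limma, adjusted p = 0.00806) and -0.12 without shARID1B.3 replicate 3 (limma, adjusted p = 0.28). It also passed the test without Control replicate 1, shARID1A.2 replicate 1, shARID1A.2 replicate 2 or shARID1A/B.4.2 replicate 1 (limma, adjusted p between 0.0235 and 0.0487). The 5 proliferation genes, MKI67, CCNB1, PCNA and MCM2 among them, were lower in all conditions but shARID1B.3, where 2 of the 5 were. Of all genes tested, between 32% (shARID1B.3) and 38.2% (shARID1A.2) were lower. The part of the proliferation genes in the fall of MXD3 was not tested.

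MNT, the most widely expressed repressor partner of MAX (chromosome 17, 2384060 to 2401118, minus strand), rose in 5 of 6 conditions and fell in none. The Control libraries had 927, 997 and 931 normalised reads of MNT. The libraries labelled shARID1A.4 had 1736, 1708 and 1693 and those labelled shARID1B.3 had 1710.3, 1705 and 1631. These conditions overlapped each other and lay far above all others. MNT rose by 0.85 in log2 for shARID1A.4 (limma, adjusted p = 5.22e-17), by 0.82 for shARID1B.3, by 0.38 for shARID1A/B.2.3, by 0.35 for shARID1A.2 and by 0.26 for shARID1A/B.4.2. For shARID1B.2 it was 0.03 (95% confidence interval -0.05 to 0.10, limma adjusted p = 0.523), and 0.16 with a call when scaled to total reads (limma, adjusted p = 0.000511).

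MLX (chromosome 17, 42567068 to 42573239, plus strand) had the narrowest span of fold changes among the 10 members. The Control libraries had 2335 to 2462 normalised reads of MLX, and those labelled shARID1B.2, the lowest, had 1551 to 1649. MLX fell by 0.58 in log2 for shARID1B.2 (limma, adjusted p = 2.38e-12), by 0.36 for shARID1A/B.4.2, by 0.28 for shARID1A.2, by 0.21 for shARID1A.4 and by 0.15 for shARID1A/B.2.3. For shARID1B.3 the change was -0.05 (95% confidence interval -0.13 to 0.03, limma adjusted p = 0.289), although the 3 libraries lay just below Control. Of the genes that extend the network through MLX and MAX, 4 of 5 were tested. MLXIP, a glucose-responsive partner of MLX, was lower in 5 conditions, by 0.97 for shARID1B.3 at most, and higher by 0.20 for shARID1A/B.2.3. Its known targets TXNIP and ARRDC4 rose together in 5 conditions. The log2 fold change of TXNIP was 1.59 for shARID1A.2 and 1.66 for shARID1A/B.4.2, and that of ARRDC4 was 1.22 and 1.18. In the libraries labelled shARID1B.3, TXNIP rose by 0.18 and ARRDC4 fell by 0.26. MGA, a large MAX partner, was lower in 4 conditions and higher by 0.29 for shARID1A/B.2.3.

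**Figure D3:**
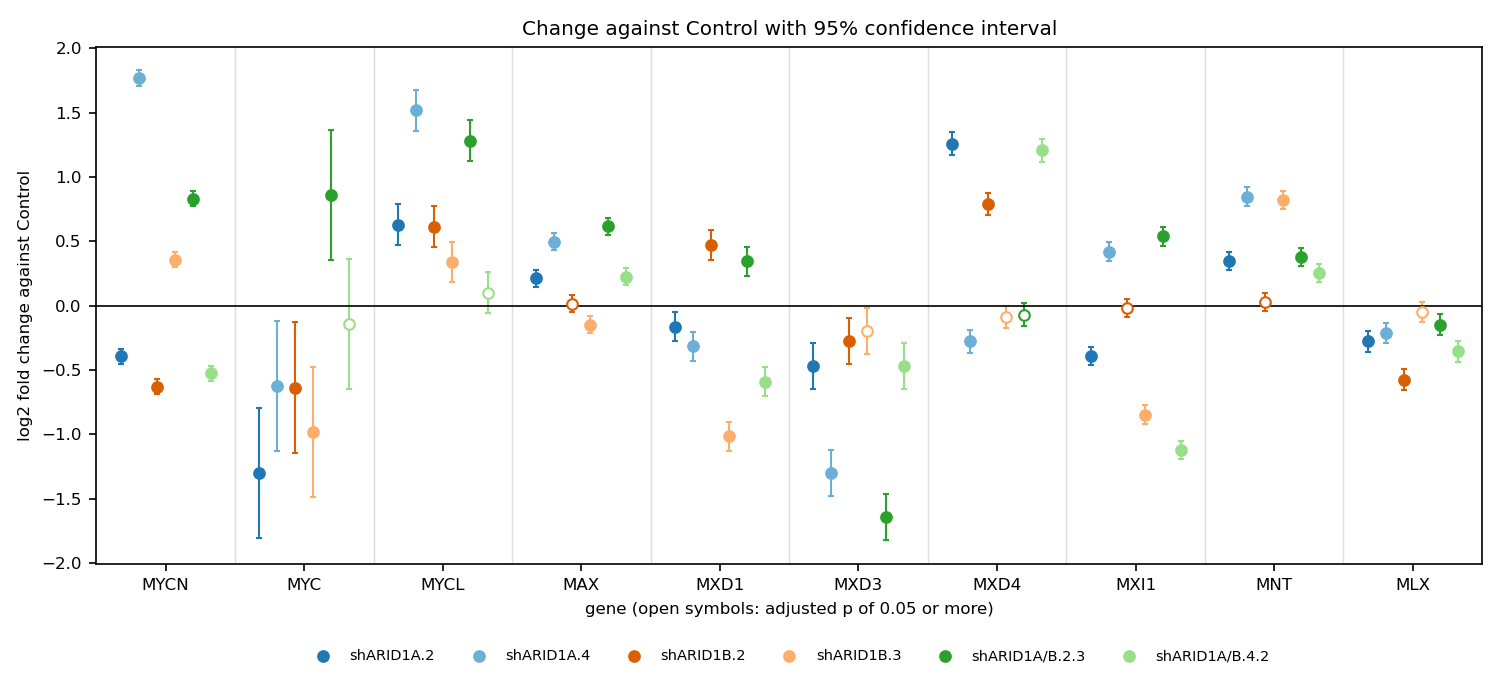
Log2 fold change against Control of the 10 members in the 6 silenced conditions, with the 95% confidence interval of the limma fit; filled symbols passed an adjusted p of 0.05. MYCN spans -0.63 to 1.77, MXD4 and MXD3 reach their largest changes in different conditions, and the intervals of MYC, the member with the fewest reads, are the widest.

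Levels of different genes were compared per kb of exon (GENCODE release 29, union of exons). MYCN stood at 47147 normalised reads per kb in Control, against 512 for MAX, 549 for MXI1, 562 for MLX, 300 for MXD4, 118 for MXD3, 109 for MNT, 92.7 for MXD1, 30.2 for MYCL and 11.9 for MYC. MYCN per MAX was 92.1 in Control, 222 for shARID1A.4 and 54.7 for shARID1A/B.4.2. Per kb, MYCN was 20.6 times the sum of the other 9 members in Control, and between 13 (shARID1B.2) and 61.7 times (shARID1A.4) in the silenced conditions. The summed level of MXD1, MXD3, MXD4, MXI1 and MNT was 1168 per kb in Control and lay between 929 (shARID1B.3) and 1444 (shARID1A.2). MXD4 and MXI1 exchanged places within this sum. In the libraries labelled shARID1A/B.4.2 MXD4 stood at 692 per kb and MXI1 at 252, whereas in those labelled shARID1A/B.2.3 MXD4 stood at 285 and MXI1 at 797.5.

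**Figure D4:**
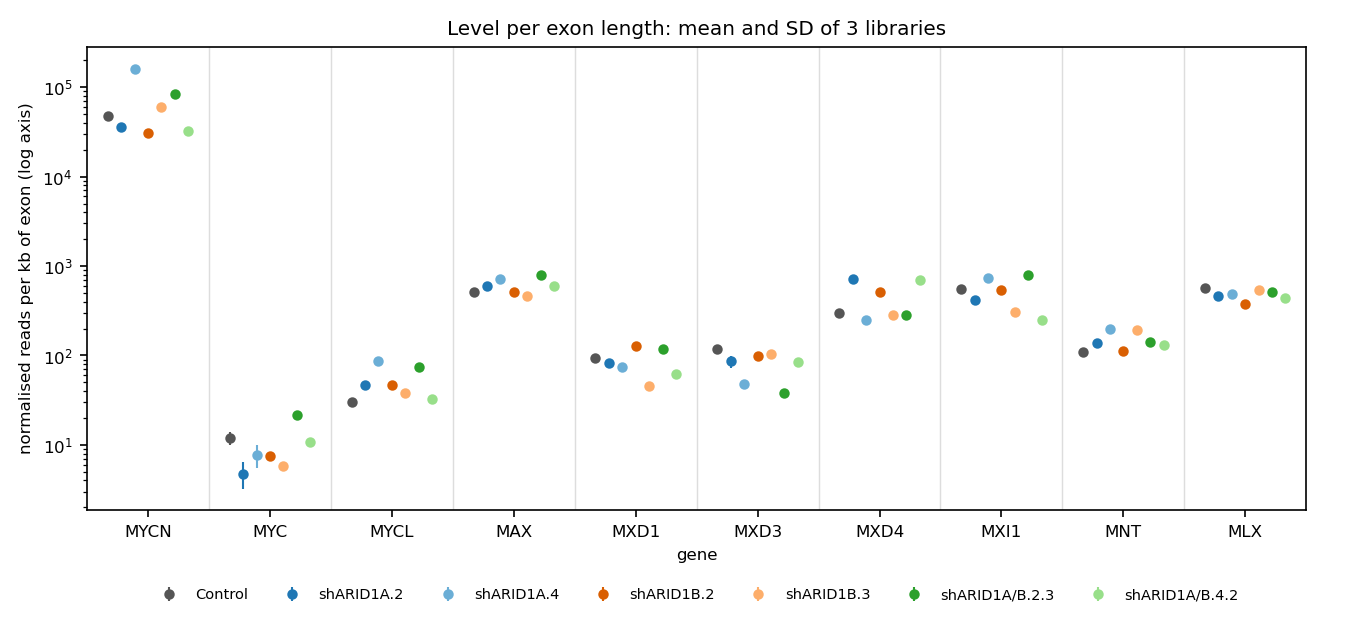
Normalised reads per kb of exon (log axis) of the 10 members in the 7 conditions, as the mean and SD of 3 libraries. MYCN lies far above the others in every condition, MAX, MXD4, MXI1 and MLX form a middle group, and MYC is the lowest (11.9 per kb in Control).

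All 10 members passed the filter on low counts. For shARID1A.2, 6 members were lower and 4 higher than Control, beside 38.2% of all genes tested lower and 37.9% higher. For shARID1A.4, 5 were lower and 5 higher (36.6% and 37% of all genes). For shARID1B.2, 4 were lower and 3 higher (34% and 31.6%), and for shARID1B.3 again 4 and 3 (32% and 31.9%). For shARID1A/B.2.3, 2 were lower and 7 higher (34% and 35.2%), and for shARID1A/B.4.2, 5 were lower and 3 higher (36.1% and 35.1%). More of the genes tested were thus called than not in each condition, as were the members. Called members with a log2 fold change of at least 1 in size, a count added after the data were seen, numbered 2, 3, 0, 1, 2 and 2 in this order of conditions, beside 24.8%, 21.4%, 12%, 11.8%, 16.1% and 18.4% of all genes. The median size of the members' log2 fold changes was 0.39, 0.56, 0.52, 0.35, 0.58 and 0.41, against 0.52, 0.49, 0.35, 0.33, 0.42 and 0.44 for all genes tested. For shARID1A/B.4.2, shARID1B.2 and shARID1A.2, scaling to total reads moved the median log2 fold change of all genes to 0.20, 0.15 and 0.19, and lower genes then made up 35.2%, 37.0% and 38.8% of the calls in place of 50.7%, 51.9% and 50.2%.

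The shRNAs or combinations of each label were then compared directly, since the names within a label give different hairpins. MYCN differed by 2.16 in log2 between shARID1A.4 and shARID1A.2 (95% confidence interval 2.10 to 2.22, limma adjusted p = 1.32e-26), by 0.99 between shARID1B.3 and shARID1B.2 (limma, adjusted p = 1.25e-19) and by -1.36 between shARID1A/B.4.2 and shARID1A/B.2.3 (limma, adjusted p = 1.18e-22). MXD4 differed in the opposite direction each time, by -1.54, -0.88 and 1.28. MXI1 differed by 0.81, -0.83 and -1.66 and MXD1 by -0.15, -1.49 and -0.94. The first of these MXD1 values did not pass the test without shARID1A.2 replicate 2 or shARID1A.4 replicate 1 (limma, adjusted p = 0.0924 and 0.0826). In all, 9, 8 and 10 members differed between the shRNAs of a label, beside 75.8%, 66% and 74.9% of all genes tested. Lower genes made up 50.7%, 50% and 49.6% of these calls, and 60.8%, 60.8% and 38.6% with scaling to total reads. Calls of opposite direction against Control within a label were made for MYCN, MXD4 and MXI1 (shARID1A), for MYCN and MXD1 (shARID1B) and for MYCN, MXD1 and MXI1 (shARID1A/B). Among all genes called with both shRNAs of a label, 28.5%, 30.2% and 34.3% had opposite directions. The members that kept 1 direction in every call against Control were MYCL and MNT, which rose, and MXD3 and MLX, which fell.

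The mean of both conditions of a label was compared with that of another label. MYCN was higher by 0.82 under the label shARID1A than under shARID1B and by 0.53 than under shARID1A/B, and higher by 0.29 under shARID1A/B than under shARID1B. These means average conditions in which MYCN moved in opposite directions. The p-values and calls of these label comparisons rest on the spread between libraries of a condition. They do not measure the spread between the conditions of a label. MYC differed by -1.33 between the labels shARID1A and shARID1A/B (limma, adjusted p = 4.07e-07) and by 1.17 between shARID1A/B and shARID1B. Within the label shARID1A/B, MYC had means of 65.6 (shARID1A/B.2.3) and 32.1 (shARID1A/B.4.2) normalised reads. Between the labels shARID1A and shARID1B the difference of MYC, which had few reads, was -0.15 (95% confidence interval -0.51 to 0.20, limma adjusted p = 0.442). Between the same labels MXD3 differed by -0.65 and MAX by 0.42. Members that differed numbered 8 (shARID1A against shARID1B), 9 (shARID1A against shARID1A/B) and 9 (shARID1A/B against shARID1B), beside 67.3%, 59.2% and 70.2% of all genes tested.

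Genes known as targets of MYC proteins were described by lists. Of 84 target genes tested, 69, 64 and 64 were lower and 10, 10 and 11 higher than Control for shARID1A.2, shARID1B.2 and shARID1A/B.4.2, the conditions with lowered MYCN. For shARID1A.4, shARID1B.3 and shARID1A/B.2.3, in which MYCN was raised, 28, 27 and 27 were lower and 48, 39 and 44 higher. Of all genes tested, 38.2%, 34% and 36.1% were lower and 37.9%, 31.6% and 35.1% higher in the former conditions. In the latter, 36.6%, 32% and 34% were lower and 37%, 31.9% and 35.2% higher. The counts of the lists that follow are to be read against these shares. The median log2 fold change of the 84 genes was -0.42, -0.31 and -0.28 in the former and 0.15, 0.04 and 0.08 in the latter, against 0.01 to 0.02 for all genes. With scaling to total reads the counts for shARID1A.2, shARID1B.2 and shARID1A/B.4.2 were 51, 51 and 45 lower and 15, 19 and 26 higher, with medians of -0.25, -0.17 and -0.10 while the median of all genes moved up.

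Within ribosome biogenesis, 30 of 34 genes were lower and 3 higher for shARID1A.2, 26 and 5 for shARID1B.2, and 27 and 2 for shARID1A/B.4.2. With scaling to total reads, 22, 21 and 17 were lower and 4, 8 and 10 higher in these conditions. The median log2 fold change for shARID1A/B.4.2 was then -0.065, in place of -0.25. Where MYCN was raised, 21 were higher and 9 lower for shARID1A.4, 18 and 7 for shARID1A/B.2.3, and 14 and 9 for shARID1B.3. The median log2 fold change of the list for shARID1B.3 was 0.01, beside 0.01 for all genes. DDX18, a nucleolar helicase, and POLR1B, a subunit of RNA polymerase I, did not share the directions of MYCN. DDX18 was lower in all conditions, by 0.93 for shARID1A/B.2.3 at most, and POLR1B fell by 1.16 there. GRWD1, a ribosome assembly factor, was higher by 0.60 for shARID1A.4 and by 0.43 for shARID1B.3, but also by 0.18 for shARID1B.2 and by 0.12 for shARID1A/B.4.2, where MYCN was lowered. PES1, a factor of the large ribosomal subunit, was higher by 0.41 for shARID1A.4 and by 0.31 for shARID1B.3, and also by 0.12 for shARID1A.2 and by 0.22 for shARID1B.2. Among 20 genes of nucleotide, polyamine, folate and energy metabolism, 15, 16 and 14 were lower and 4, 2 and 6 higher for shARID1A.2, shARID1B.2 and shARID1A/B.4.2. With scaling to total reads, 12, 14 and 10 of them were lower and 5, 3 and 7 higher. For shARID1A.4, shARID1B.3 and shARID1A/B.2.3, 12, 10 and 11 were higher and 6, 7 and 7 lower. ODC1, the first enzyme of polyamine synthesis and a classic MYC target, had the sign of MYCN in every condition with the deposited scaling, with log2 fold changes of -0.47, 1.52, -0.45, 1.64, 0.66 and -0.10 in the order given for MYCNOS. With total reads its value for shARID1A/B.4.2 was 0.09 (limma, adjusted p = 0.000243), while MYCN remained lower there. SRM, the spermidine synthase gene, was higher in all of them, by 0.91 for shARID1A.4 and by 0.92 for shARID1A/B.2.3. SHMT1, a folate enzyme, and TFRC, the transferrin receptor, had log2 fold changes of -2.22 and -1.25 for shARID1A.4 and of -1.15 and -1.47 for shARID1A/B.2.3. Of 23 genes of chaperones, translation and other functions, 14, 14 and 15 were higher and 7, 6 and 7 lower for shARID1A.4, shARID1B.3 and shARID1A/B.2.3. For shARID1A.2, shARID1B.2 and shARID1A/B.4.2, 17, 15 and 16 were lower and 3, 3 and 3 higher. With scaling to total reads this lower balance was small, with 10, 9 and 11 lower and 6, 8 and 9 higher. CBX3, a chromatin protein, was lower in all conditions, by 1.41 for shARID1A/B.4.2, and TERT, the telomerase gene, fell by 1.66 for shARID1A/B.2.3. EIF4A1, a translation initiation helicase, rose in all conditions, by 0.24 to 0.37, and RABEPK, a Rab effector, rose by 1.08 for shARID1A.4, fell by 0.20 for shARID1B.2 and rose in the other conditions with lowered MYCN, by 0.14 for shARID1A.2 and by 0.22 for shARID1A/B.4.2.

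**Figure D5:**
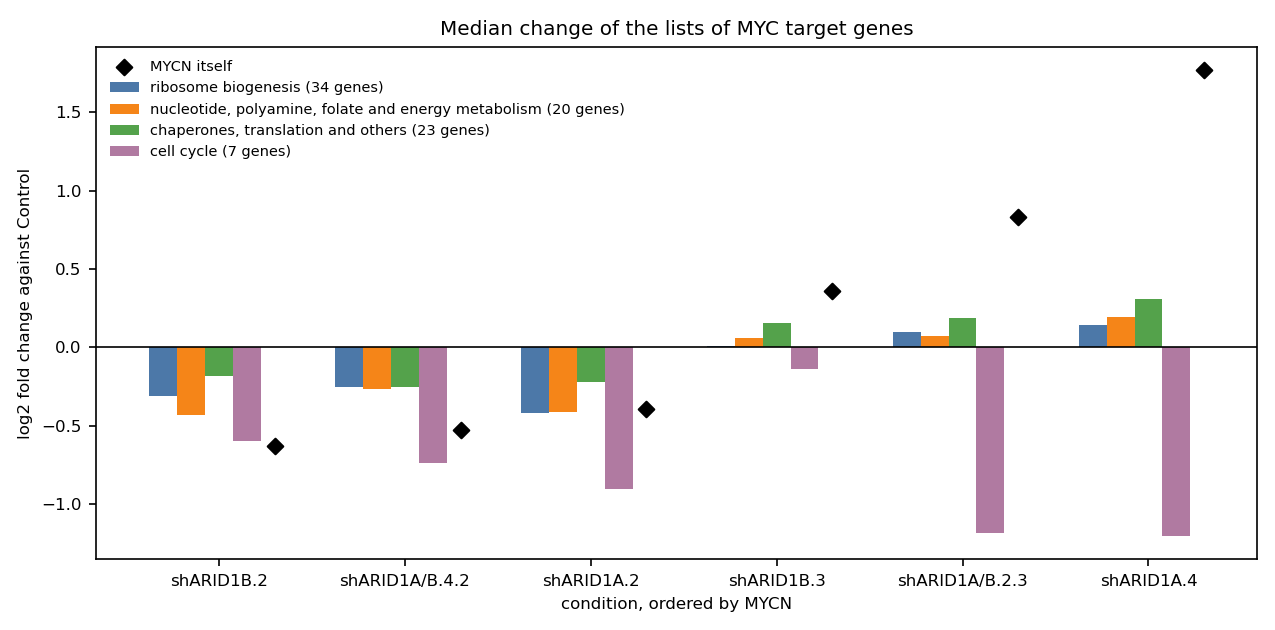
Median log2 fold change against Control of 4 lists of MYC target genes (bars) and the value of MYCN itself (diamonds), with the conditions ordered by MYCN. The bars of ribosome biogenesis, metabolism and chaperones lie below 0 where MYCN is lowered and at or above 0 where it is raised (0.01 at the least, ribosome biogenesis for shARID1B.3), whereas the cell cycle bars lie below 0 in all conditions.

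The target genes of the cell cycle did not share the directions of MYCN. Of 7 tested, 7 and 6 were lower for shARID1A.2 and shARID1A.4, 7 and 5 for shARID1B.2 and shARID1B.3, and 6 and 7 for the combinations shARID1A/B.2.3 and shARID1A/B.4.2. Of all genes tested, between 32% (shARID1B.3) and 38.2% (shARID1A.2) were lower. MCM4 and MCM5, parts of the replicative helicase, fell by 1.20 and 1.52 for shARID1A.4, where MYCN was at its highest, and CDC25A, a phosphatase that drives the cell cycle, fell by 0.62 there. CDK4, a kinase of the G1 phase, was the exception, higher by 0.42 for shARID1A.4 and by 0.44 for shARID1B.3 and lower for shARID1A.2, shARID1B.2 and shARID1A/B.4.2. For shARID1A/B.2.3, where MYCN was also raised, 0 of the 7 genes, CDK4 included, were called higher, and 1 was with scaling to total reads. The 5 genes of proliferation were also lower in all conditions but shARID1B.3. Their median log2 fold change was -1.19 for shARID1A.2, with -1.96 for PCNA and -2.05 for MCM2. For shARID1B.3, 2 of the 5 were lower and their median was -0.05. Genes listed as markers of other cells moved as well. All samples came from 1 established line, and the presence of other cells was not measured. The summed value of the 9 markers of other cells was 22884 to 23624 in Control, 5971 to 6714 for shARID1A.2, 9545 to 10080.3 for shARID1A.4, 20377 to 21564 for shARID1B.2, 19402 to 20126 for shARID1B.3, 13907 to 14313 for shARID1A/B.2.3 and 5828 to 6075 for shARID1A/B.4.2. COL1A1 made up most of the sum in Control, with a mean of 12929, and had 1364 for shARID1A.2. COL3A1 went the other way there, from 1917 in Control to 2744 for shARID1A.2 and 3133 for shARID1B.2, and PDGFRB had 7872 in Control and 8286 for shARID1B.3. Their part in the changes of the members was not tested.

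Genes that act on MYC proteins were described by 2 further lists. Of 11 genes of MYC protein turnover, 8, 7, 10, 3, 8 and 6 were lower and 3, 2, 1, 2, 2 and 3 higher in the same order of conditions, beside 38.2%, 36.6%, 34%, 32%, 34% and 36.1% of all genes tested lower and 37.9%, 37%, 31.6%, 31.9%, 35.2% and 35.1% higher. The balance turned for shARID1B.3, to 2 lower and 5 higher, with scaling to total reads and with TMM scaling, and for shARID1A/B.4.2, to 4 lower and 5 higher, with total reads. SKP2, a ubiquitin ligase subunit that targets MYC and is active in dividing cells, had log2 fold changes of -1.73 for shARID1A.4 and -2.08 for shARID1A/B.2.3, and of -0.46, -0.45 and -0.45 in the conditions with lowered MYCN. CIP2A, an inhibitor of the phosphatase that destabilises MYC, was lower in all conditions but shARID1B.3 (0.02, limma adjusted p = 0.675). USP36, a nucleolar deubiquitinase, rose by 0.77 for shARID1A.4. FBXW7, the ligase subunit that recognises phosphorylated MYC, had log2 fold changes between -0.34 and 0.28. Of 15 cofactors of MYC or MXD proteins, 9, 5, 6, 1, 7 and 8 were lower and 3, 8, 4, 9, 5 and 4 higher, to be read against the same shares of all genes. SIN3A, the corepressor that MXD proteins bind, fell by 1.10 for shARID1A.4 and by 1.01 for shARID1A/B.2.3, while its paralog SIN3B rose by 0.47 and 0.46 there. KAT2A, a histone acetyltransferase recruited by MYC, rose by 0.67 for shARID1A.4. RUVBL1, a helicase also among the listed cofactors, fell by 0.47 there and rose by 0.16 for shARID1B.3. The balance of the cofactors depended on scaling, since with total reads 4 were lower and 8 higher for shARID1A.2, 5 lower and 9 higher for shARID1B.2, and 5 lower and 8 higher for shARID1A/B.4.2.

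The genes whose pattern over the 21 libraries was most like that of each member were listed by Pearson correlation of log2 values among 13674 other genes (13675 for MYC) with a mean of at least 50. For MYCN they were PTPRM (0.982), SLC25A39 (0.98), GTF3A (0.979), ABCB6 (0.974) and UBE2G1 (0.974). The closest for MAX was MRPS2 (0.984), for MNT FLCN (0.991), for MXD4 TSPAN31 (0.986), for MXD3 POLD1 (0.983), for MXI1 AP3M1 (0.982) and for MYCL CIAO1 (0.981). MXD1 was most like SKP1 (0.963), MLX most like SF3B3 (0.947) and MYC, which had few reads, most like GPX3 (0.939). Between members, the values were -0.93 for MAX and MXD3, -0.88 for MYCL and MXD3, 0.78 for MYCL and MAX and 0.76 for MYCN and MYCL. These are descriptions over libraries that share 7 conditions and their depth.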

How the data were processed

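RNA-Seq libraries were made by the authors from SK-N-BE(2) cells (7 conditions, 3 libraries each). The submitters' processing notes name STAR 2.5.3a, RSEM 1.3.0, DESeq2 1.26.0 and GRCh38. The annotation and the strand setting of the counting are not given in the sources used here. The deposited values are a signal, read numbers that the authors had scaled by size factors of 0.841 to 1.295. Multiplying by these gave whole reads in 100% of cases (largest deviation 0.0066 read, tolerance 0.1). A further 3 deposited tables hold log2 fold changes and p-values of comparisons by the authors, apparently DESeq2 output by their headers, and were not used. All columns of values matched a library.

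Log2 of the value plus a pseudocount of 1 was fitted with limma 3.58.1 (trend, 7 conditions, all 21 libraries) over 18584 genes kept by filterByExpr of edgeR 4.0.16, in R 4.3.3, with Benjamini-Hochberg adjustment and a threshold of 0.05. Fold changes are on this scale and understate those of low genes. The 21 replicate pairs differed by more than sampling noise (chi-square per degree of freedom 1.55 to 4.26). Gene coordinates and exon lengths are from GENCODE release 29, matched by identifier without version. The script was tested on simulated data. Alternatives were edgeR with TMM and DESeq2 1.42.0 on the recovered reads, total-read and TMM scaling, pseudocounts of 0.5 and 5, no filter (35892 genes), at least 10 reads in every library (14637 genes), only the libraries compared, 4 label groups, a replicate block and each library left out.

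The members and lists were chosen with earlier results of these data known. Named beside the members are, per list, the 2 genes with the lowest and the 2 with the highest mean log2 fold change among those called in at least 3 conditions, and the most correlated genes. The replicate numbers did not pair the libraries.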

Additional observations from a re-analysis of the deposited data

Results flagged for a closer look

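The results below were flagged because the shRNAs or combinations that share a label moved a member in opposite directions against the same Control libraries. Each direction passed the test, and limma tested the difference itself. Opposite directions were common among all genes called with both shRNAs of a label (28.5%, 30.2% and 34.3% for shARID1A, shARID1B and shARID1A/B). Of the members called with both, 3, 2 and 3 had opposite directions and 7, 2 and 4 the same. For the label shARID1A, shARID1A.4 was above shARID1A.2 by 2.16 on the log2 scale for MYCN and by 0.81 for MXI1, and MXD4 differed by -1.54. For the label shARID1B, shARID1B.3 differed from shARID1B.2 by 0.99 for MYCN and by -1.49 for MXD1. For the label shARID1A/B, shARID1A/B.4.2 differed from shARID1A/B.2.3 by -1.36 for MYCN, by -0.94 for MXD1 and by -1.66 for MXI1. In each case all 3 libraries of the one condition lay above Control and all 3 of the other below it. MYCN is the member found under all 3 labels. Whether ARID1A, ARID1B or the hairpins themselves bear on these differences was not tested.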

How the results depend on the processing

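The numbers of members called stayed within 1.5 times under every alternative but 1. With 4 label groups, which puts both shRNAs of a label together, the counts were 5 for shARID1A.2 and shARID1A.4, 0 for shARID1B.2 and shARID1B.3 and 2 for shARID1A/B.2.3 and shARID1A/B.4.2 by limma. At an unadjusted p under 0.05, 3 members (MYC, MNT and MLX) passed for the label shARID1B. In the fits that keep the 7 conditions apart, edgeR and DESeq2 included, 6 to 8 were called for shARID1B.2 and 7 to 9 for shARID1B.3. The log2 fold change of MYCN with 4 label groups was 0.69 for shARID1A, -0.14 for shARID1B and 0.15 for shARID1A/B (adjusted p = 0.345, 0.908 and 0.873 from limma). By construction these values average conditions that moved apart.

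Signs also turned with 4 label groups for MYC (0.36, shARID1A/B.4.2), MAX (-0.066, shARID1B.2), MXD1 (-0.27, shARID1B.2, and -0.12, shARID1A/B.2.3), MXD4 (0.49, shARID1A.4, 0.35, shARID1B.3, and 0.57, shARID1A/B.2.3) and MXI1 (0.014, shARID1A.2, and -0.29, shARID1A/B.2.3). With scaling to total reads they turned for MYC (0.0396, shARID1A/B.4.2), MXD1 (0.0072, shARID1A.2), MXI1 (0.12, shARID1B.2), MXD3 (-0.027, shARID1B.3 against shARID1B.2), MNT (0.0302, shARID1A/B.4.2 against shARID1A/B.2.3) and MLX (-0.085, shARID1A.4 against shARID1A.2, and -0.0066, shARID1A against shARID1A/B). MXI1 for shARID1B.2 was 0.0090 with edgeR and 0.0089 with TMM scaling, and -0.034 to 0.0089 with a library left out, above 0 without Control replicate 1. MLX for shARID1A against shARID1A/B was -0.0011 with edgeR. With a library left out it was -0.0147 to 0.0265, below 0 without shARID1A.2 replicate 3, shARID1A.4 replicate 2 or shARID1A/B.4.2 replicate 2, and MXD3 for shARID1B.3 against shARID1B.2 was -0.0084 to 0.159, below 0 without shARID1B.3 replicate 1. The cause was not tested.

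With each library left out in turn, MYCN was -0.41 to -0.37 for shARID1A.2, 1.75 to 1.78 for shARID1A.4, -0.64 to -0.61 for shARID1B.2, 0.32 to 0.40 for shARID1B.3, 0.82 to 0.84 for shARID1A/B.2.3 and -0.54 to -0.52 for shARID1A/B.4.2. Members called against Control numbered 10, 9 to 10, 6 to 7, 7 to 9, 9 and 8 in this order, 7 to 8, 8 to 9 and 9 to 10 between labels, and 8 to 9, 8 and 10 between the shRNAs of a label.

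The replicate number as a block changed no call and no count of members (10, 10, 7, 7, 9 and 8 against Control). The numbers did not pair the libraries, since only 3 of 63 same-numbered pairs had deviations correlated above 0.1, and 6 of 21 libraries correlated best with their own number. MYC, at 8 to 70 reads, is the member with the fewest reads, and it did not pass the filter of 10 reads in every library.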
